A study of Homo sapiens with 36 samples.

Results

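Cholesterol and fatty acid synthesis was followed through 33 genes that encode the enzymes of both pathways and the proteins that control them. They were chosen by name, as a list of pathway genes, and every probe of a listed gene was taken by its current or older symbol in the array's annotation. The choice was made with earlier results of these data known, so shares of the list set beside all genes describe it and do not test it. Of 20046 gene symbols with a probe, 32 were on the list, through 51 probes, and 31 of the listed genes were among the 12360 genes tested. FDFT1, which encodes squalene synthase, was not analysed here, and STARD4, which encodes a sterol carrier, was above background on 0 of the 36 arrays. The arrays measured RNA from DU145, PC-3 and 22Rv1, established human prostate cancer cell lines, of which the labels call the first radiation resistant and the other two radiation sensitive. Each line was grown in normoxia or for 24 h at 0.2% oxygen, with solvent or for 24 h with 1 µM vorinostat, an inhibitor of histone deacetylases, which gave 12 groups of 3 arrays: normoxia with solvent, hypoxia with solvent, normoxia with vorinostat and hypoxia with vorinostat, in each line. RNA was taken from cells that had not yet been irradiated. The labels name no introduced gene or deletion, and each line is a single established line, so that a difference between lines is a difference between 3 cell lines only. The study's design text says that vorinostat made DU145 more sensitive to radiation and the other lines not. Groups called solvent by their titles are called untreated in the sample characteristics.

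Cholesterol is built from acetyl-CoA through mevalonate, isoprenoid diphosphates, squalene and lanosterol, and several of the later steps use molecular oxygen. Fatty acids are built from the same acetyl-CoA, then elongated and desaturated, and desaturation also uses oxygen. Transcription of most of these enzymes is driven by the SREBP factors, encoded by SREBF1 and SREBF2. When sterols are plentiful, the INSIG proteins hold SREBP and its escort SCAP in the endoplasmic reticulum, and when sterols are scarce the escort carries SREBP to the Golgi, where it is cut and released to the nucleus. INSIG1 is itself a target of SREBP, and INSIG2 has been described as a gene that hypoxia-inducible factors raise.

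The array data were alike in quality between groups. The probes above background made up 30.1% to 35.7% of each array, and replicates correlated at 0.985 to 0.995. The keratins KRT8 and KRT18 and the epithelial adhesion gene EPCAM were above background on 12 of 12 arrays of each line, and KLK2, a prostate secretory protease, on 12 of 12 22Rv1 arrays and 0 of 12 arrays of each other line. Of the other cell types' markers, PECAM1 (endothelium) and COL1A1 (fibroblasts) were above background on 12 of 12 PC-3 arrays, on 0 and 4 of 12 22Rv1 arrays and on 0 and 5 of 12 DU145 arrays. COL3A1, a second collagen, was above background on 7 of 12 PC-3 arrays and on 0 arrays of the other lines. CD14 (monocytes) was on 9, 6 and 6 of 12 arrays of PC-3, DU145 and 22Rv1. None of these 4 markers was called for hypoxia. Of the epithelial markers, KRT8 fell by 0.44 in DU145 and rose by 0.74 in 22Rv1 in hypoxia (log2 change). KRT8 rose under vorinostat by 0.47 in DU145, 0.73 in PC-3 and 0.59 in 22Rv1. EPCAM fell under vorinostat by 0.57 in DU145 and 0.60 in PC-3, and KLK2 rose by 0.28 in 22Rv1. KLK3, a prostate secretory protease, VWF (endothelium), PTPRC (leukocytes) and CD3E (T cells) did not pass the detection filter. COL1A1 was above background on 5 of 6 vorinostat and 0 of 6 solvent arrays of DU145, and on 4 and 0 of 6 of 22Rv1. Under vorinostat CD14 rose by 0.58 in PC-3 and fell by 0.44 in 22Rv1 (log2 change). The part of all these markers in the hypoxia and vorinostat results and in the differences between lines was not tested. The hypoxia-induced genes NDRG1, BNIP3, PGK1 and ADM rose in hypoxia in all 3 lines, and VEGFA, another such gene, rose by 0.67 in PC-3 and 1.80 in 22Rv1 and was not called in DU145 (0.37, adjusted p = 0.206). NDRG1 rose by 3.39 in DU145, 2.36 in PC-3 and 2.74 in 22Rv1, and ADM rose by 1.69, 2.12 and 4.42 (log2 change). The labels do not say whether replicates came from separate cultures, and the p-values therefore cover the spread among these samples alone, part or all of which may be technical. A signal from bulk RNA cannot tell fewer cells of a kind from less RNA per cell.

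The promoters of INSIG2, INSIG1, HMGCS1 and SCD are printed because these genes carried the main changes in hypoxia: INSIG2 and SCD rose in all 3 lines, while INSIG1 and HMGCS1 changed by amounts that differed between lines. Each runs from 250 bases before to 50 bases after the first start listed for the gene by RefSeq (GRCh38.p14), 5′ to 3′ on the gene's strand, so that each spans 300 bases. The locations are chr2:118088221-118088520 on the plus strand for INSIG2, chr7:155297628-155297927 on the plus strand for INSIG1, chr5:43313363-43313662 on the minus strand for HMGCS1 and chr10:100346983-100347282 on the plus strand for SCD. Capitals mark matches, on either strand, to TCACNCCAC (a sterol regulatory element), CACGTG (an E-box), CCAAT (the box bound by NF-Y, a partner of SREBP) and ACGTG or GCGTG (the core letters bound by hypoxia-inducible factors). ACGTG lies within CACGTG, so these 2 overlap.
INSIG2: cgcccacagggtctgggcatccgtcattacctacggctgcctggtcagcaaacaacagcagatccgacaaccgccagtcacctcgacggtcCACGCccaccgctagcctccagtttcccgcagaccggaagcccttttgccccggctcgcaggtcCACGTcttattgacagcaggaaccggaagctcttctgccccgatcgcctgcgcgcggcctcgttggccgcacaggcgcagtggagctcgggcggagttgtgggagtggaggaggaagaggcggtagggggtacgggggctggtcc
INSIG1: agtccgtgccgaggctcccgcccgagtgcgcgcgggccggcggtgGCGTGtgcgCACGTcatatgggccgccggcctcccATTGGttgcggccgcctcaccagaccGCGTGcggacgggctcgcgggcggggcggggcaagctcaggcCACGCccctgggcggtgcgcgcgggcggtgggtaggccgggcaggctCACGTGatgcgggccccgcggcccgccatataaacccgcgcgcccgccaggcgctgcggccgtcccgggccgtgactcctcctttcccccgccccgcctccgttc
HMGCS1: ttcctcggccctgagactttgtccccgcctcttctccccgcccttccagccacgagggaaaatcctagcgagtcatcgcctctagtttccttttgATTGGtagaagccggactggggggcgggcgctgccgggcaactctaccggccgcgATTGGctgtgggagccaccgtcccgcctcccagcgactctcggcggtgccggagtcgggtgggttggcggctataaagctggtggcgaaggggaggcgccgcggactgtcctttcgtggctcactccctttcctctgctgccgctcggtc
SCD: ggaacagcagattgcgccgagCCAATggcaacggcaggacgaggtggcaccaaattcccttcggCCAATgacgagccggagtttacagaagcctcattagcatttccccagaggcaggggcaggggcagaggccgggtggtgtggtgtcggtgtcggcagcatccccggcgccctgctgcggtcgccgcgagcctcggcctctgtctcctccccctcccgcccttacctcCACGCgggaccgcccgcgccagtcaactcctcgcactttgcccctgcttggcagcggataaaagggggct

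The INSIG2 window held GCGTG at -159 and ACGTG at -95, counted from the start site, and no CCAAT. The INSIG1 window held GCGTG at -205, -144 and -102, ACGTG at -196, -55 and -54, CACGTG at -55 and CCAAT at -170. HMGCS1 held CCAAT at -155 and -100 and neither hypoxia core, and SCD held CCAAT at -229 and -186 and GCGTG at -20. None of the 4 windows held TCACNCCAC. RefSeq promoters were matched for 29 of the 33 genes, all but ACAT2, FASN, SQLE and FDFT1. Of these 29, 18 held CCAAT (62.1%, against 35.7% of the promoters of all 27305 genes), 22 held GCGTG (75.9% against 36.3%) and 7 held ACGTG (24.1% against 21.6%). CACGTG was in 4 (13.8% against 7.43%) and TCACNCCAC in 1 (3.45% against 1.15%). The list and all genes were not matched for base composition, and its part in these shares was not tested. A match of letters describes the window and does not show that a factor binds there.

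The first comparison asks what hypoxia changed without the drug, from 3 hypoxic and 3 normoxic solvent arrays of each line. Sterol synthesis genes rose in DU145, rose in part in PC-3 and fell in part in 22Rv1. Genes were called at an adjusted p under 0.05 in limma, adjusted over the 12360 genes tested. In DU145, 18 of 31 genes rose (58.1% of them; 7.84% of all genes were called higher) and 0 fell (6.91% of all genes; 0 at an unadjusted p under 0.05), with a median log2 change of 0.43 against 0.01 over all genes. In PC-3, 10 rose (7.35% of all genes) and 1 fell (9.53%), with a median of 0.13 against -0.02. In 22Rv1, 2 rose (9.89%) and 8 fell (10.3%; 20.2% of all genes were called in either direction), with a median of -0.18 against -0.02. With median scaling in place of quantile normalization 10 genes were called in DU145, and without PC-3 hypoxia solvent 1 there were 7 calls in PC-3. In 22Rv1 there were 16 calls with array weights and 17 with the arrays of 22Rv1 alone.

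**Figure D1:**
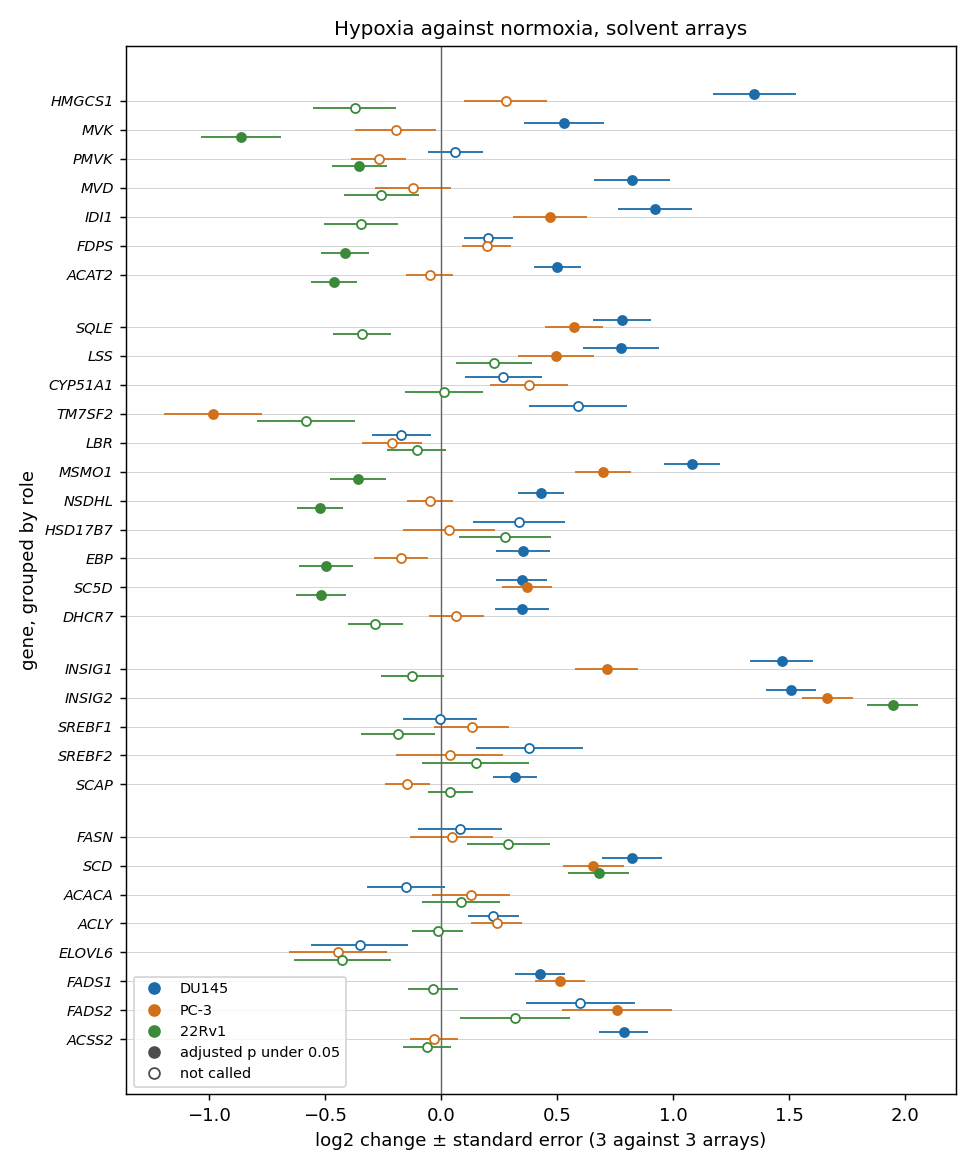
Log2 change in hypoxia for the 31 genes tested, with bars for the standard error from limma (3 hypoxic against 3 normoxic solvent arrays). Filled points were called at an adjusted p under 0.05. Blue points (DU145) lie mostly right of 0, green points (22Rv1) of the first 2 groups lie mostly left of it, and INSIG2 and SCD are right of 0 in all 3 lines.

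INSIG2, which encodes the second INSIG retention protein, had the largest change of the 31 genes in each line. In DU145 its log2 signal was 7.79, 7.85 and 7.92 on the normoxic and 9.56, 9.30 and 9.23 on the hypoxic solvent arrays. In PC-3 it was 8.22, 8.12 and 8.23 against 9.81, 9.86 and 9.89, and in 22Rv1 6.41, 6.14 and 6.14 against 8.06, 8.46 and 8.01. Every hypoxic array lay above every normoxic array of its line, by more than 1 log2 unit. The log2 changes were 1.51 ± 0.11 (SE) in DU145 (2.85-fold, adjusted p = 1.59e-11), 1.67 ± 0.11 in PC-3 (3.17-fold, adjusted p = 2e-12) and 1.95 ± 0.11 in 22Rv1 (3.86-fold, adjusted p = 1.08e-14). The rise was not shown to differ between lines: the differences were -0.16 ± 0.15 (DU145 minus PC-3, adjusted p = 0.704), -0.44 ± 0.15 (DU145 minus 22Rv1, adjusted p = 0.0923) and -0.28 ± 0.15 (PC-3 minus 22Rv1, adjusted p = 0.359).

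INSIG1, the SREBP-driven INSIG gene, rose in DU145 and PC-3. Its log2 signal in DU145 was 8.76, 8.57 and 8.45 in normoxia and 10.19, 9.86 and 10.13 in hypoxia. In PC-3 it was 8.76, 8.70 and 8.54 against 9.30, 9.45 and 9.39, and in 22Rv1 9.92, 10.09 and 9.87 against 9.89, 9.89 and 9.72. The groups did not overlap in DU145 and PC-3 and overlapped in 22Rv1, whose arrays were high in both conditions. The log2 changes were 1.47 ± 0.14 in DU145 (2.77-fold, adjusted p = 4.01e-09), 0.72 ± 0.14 in PC-3 (adjusted p = 0.000379) and -0.12 ± 0.14 in 22Rv1 (adjusted p = 0.59). A second, dimmer probe of INSIG1 gave 1.17, 0.47 and -0.04, and was called in DU145 alone.

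The other control genes changed little. SCAP, the escort of SREBP, rose in DU145 (0.32 ± 0.10, adjusted p = 0.0226), a call that ended with median scaling, with the arrays of DU145 alone and without any of 3 arrays, normoxia solvent 1 (adjusted p = 0.0561) and 2 (adjusted p = 0.0675) and hypoxia solvent 1 (adjusted p = 0.0936). SREBF1 was not called in any line, with log2 changes of -0.00, 0.13 and -0.18 in DU145, PC-3 and 22Rv1. SREBF2 was above background on 16 of 36 arrays, with log2 signals between 4.57 and 5.92, and was called in no comparison, so its level was not measured well enough to give a change.

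Of the 7 mevalonate genes, 5 rose and 0 fell in DU145 (7.84% and 6.91% of all genes), 1 rose and 0 fell in PC-3 (7.35% and 9.53%), and 0 rose and 4 fell in 22Rv1 (9.89% and 10.3%). HMGCS1, HMG-CoA synthase, had log2 signals of 10.32, 10.12 and 10.35 in normoxia and 11.76, 11.57 and 11.52 in hypoxia in DU145. In PC-3 they were 9.09, 9.50 and 9.05 against 9.59, 9.65 and 9.23, and in 22Rv1 10.27, 10.40 and 10.14 against 9.91, 9.91 and 9.87. The DU145 groups stood more than 1 log2 unit apart, the PC-3 groups overlapped, and each hypoxic 22Rv1 array lay below each normoxic one. The log2 changes were 1.35 ± 0.18 in DU145 (2.55-fold, adjusted p = 2.85e-06), 0.28 ± 0.18 in PC-3 (adjusted p = 0.322) and -0.37 ± 0.18 in 22Rv1 (adjusted p = 0.148). The 22Rv1 value passed the threshold with array weights (adjusted p = 0.0217), with the replicate block (adjusted p = 0.0161) and with the arrays of 22Rv1 alone (adjusted p = 0.0109).

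MVK, mevalonate kinase, went in opposite directions in DU145 and 22Rv1. Its log2 signal in 22Rv1 was 6.93, 7.20 and 6.88 in normoxia and 6.14, 6.18 and 6.11 in hypoxia, and in DU145 6.21, 5.86 and 6.19 against 6.59, 6.56 and 6.70. No array of one condition reached the other in either line. The log2 change was -0.86 ± 0.17 in 22Rv1 (adjusted p = 0.000528), 0.53 ± 0.17 in DU145 (adjusted p = 0.0352) and -0.20 ± 0.17 in PC-3 (adjusted p = 0.504). The DU145 call ended with median scaling (adjusted p = 0.101), with the arrays of DU145 alone (adjusted p = 0.0968), with no detection filter (adjusted p = 0.052) and without any of 5 of its 6 arrays (adjusted p up to 0.176).

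Among the remaining mevalonate genes, IDI1, which isomerises isopentenyl diphosphate, rose by 0.92 in DU145 and 0.47 in PC-3, the latter a call that ended under 11 alternatives. MVD, mevalonate diphosphate decarboxylase, rose by 0.82 in DU145. ACAT2, the thiolase that makes acetoacetyl-CoA, rose by 0.50 in DU145 and fell by 0.46 in 22Rv1. FDPS, farnesyl diphosphate synthase, fell by 0.41 and PMVK, phosphomevalonate kinase, fell by 0.35 in 22Rv1, where the call for FDPS ended without normoxia solvent 1 (adjusted p = 0.0579) and that for PMVK without any 1 of the 6 arrays (adjusted p up to 0.134).

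Of the 11 genes of squalene and sterol steps, 7 rose and 0 fell in DU145 (7.84% and 6.91% of all genes), 4 rose and 1 fell in PC-3 (7.35% and 9.53%), and 0 rose and 4 fell in 22Rv1 (9.89% and 10.3%). SQLE, squalene epoxidase, had log2 signals of 9.86, 9.93 and 10.06 against 10.88, 10.55 and 10.77 in DU145 (normoxia against hypoxia). It had 9.76, 10.12 and 9.86 against 10.34, 10.56 and 10.57 in PC-3, and 10.21, 10.18 and 10.06 against 9.73, 9.93 and 9.77 in 22Rv1. Hypoxic arrays were all above normoxic ones in DU145 and PC-3, and all below them in 22Rv1. Its log2 changes were 0.78 ± 0.12 (adjusted p = 4.5e-05), 0.57 ± 0.12 (adjusted p = 0.00154) and -0.34 ± 0.12 (adjusted p = 0.0524), and the last passed the threshold under 10 alternatives (lowest adjusted p = 0.00675, with array weights). A second, dimmer probe of SQLE, above background on all 36 arrays, gave 0.55 in DU145, 0.33 in PC-3 and -0.44 in 22Rv1. It was called higher in DU145 and lower in 22Rv1, and was not called in PC-3.

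MSMO1, the oxygen-using methylsterol monooxygenase, rose by 1.08 ± 0.12 in DU145 (adjusted p = 1.67e-07) and 0.70 ± 0.12 in PC-3 (adjusted p = 0.000116) and fell by 0.35 in 22Rv1 (adjusted p = 0.0356). Its 2 dimmer probes gave 0.85 and 0.05 in DU145, -0.01 and -0.24 in PC-3 and -0.90 and -0.08 in 22Rv1. The mean of its probes was not called in PC-3 (adjusted p = 0.466), and the 22Rv1 call of the brightest probe ended with median scaling, with cyclic loess and without any of 5 arrays (adjusted p up to 0.117). TM7SF2, a sterol reductase, had log2 signals of 9.14, 8.33 and 8.97 in normoxia and 7.99, 7.69 and 7.82 in hypoxia in PC-3. The hypoxic arrays were all lower, and the log2 change was -0.98 ± 0.21 (adjusted p = 0.0014). It was not called in DU145 (0.59 ± 0.21, adjusted p = 0.0579) or 22Rv1 (-0.58 ± 0.21, adjusted p = 0.0509).

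Of the later sterol enzymes, LSS, lanosterol synthase, rose by 0.78 in DU145 and 0.50 in PC-3. SC5D, a sterol desaturase, rose by 0.35 in DU145 and 0.37 in PC-3 and fell by 0.52 in 22Rv1. NSDHL, a sterol dehydrogenase, rose by 0.43 in DU145 and fell by 0.52 in 22Rv1, and EBP, the sterol isomerase, rose by 0.35 in DU145 and fell by 0.49 in 22Rv1. DHCR7, the reductase of the last step, rose by 0.35 in DU145. The DU145 calls of SC5D, EBP and DHCR7 and the PC-3 calls of LSS and SC5D ended with median scaling and without several single arrays. CYP51A1, the lanosterol demethylase, LBR, a nuclear envelope protein with sterol reductase activity, and HSD17B7, a sterol ketone reductase with a near-identical pseudogene copy, were called in no line by their brightest probes. A dim LBR probe, above background on 5 of 36 arrays, was called lower in DU145 (-0.68, adjusted p = 0.0114).

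Of the 8 fatty acid genes, 3 rose in DU145 (7.84% of all genes), 3 in PC-3 (7.35%) and 1 in 22Rv1 (9.89%), and 0 fell in any line (6.91%, 9.53% and 10.3%). SCD, the desaturase that makes oleate, was the gene they shared. Its log2 signal was 11.91, 11.60 and 11.69 in normoxia and 12.73, 12.28 and 12.66 in hypoxia in DU145, 10.55, 11.05 and 11.18 against 11.53, 11.44 and 11.77 in PC-3, and 11.55, 11.62 and 11.51 against 12.30, 12.20 and 12.22 in 22Rv1. The groups did not overlap in any line, and the spread was widest in normoxic PC-3. The rises were 0.82 ± 0.13 (adjusted p = 4.33e-05), 0.66 ± 0.13 (adjusted p = 0.000644) and 0.68 ± 0.13 (adjusted p = 0.000326). With INSIG2 it made up the 2 of 31 genes that rose in all 3 lines (1.76% of all genes did), and 0 fell in all 3 (2.07%).

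FADS2, a desaturase of polyunsaturated fatty acids, had log2 signals of 6.61, 6.84 and 6.60 in normoxia and 7.41, 7.08 and 7.83 in hypoxia in PC-3, with no overlap and a wide hypoxic spread. It rose by 0.76 ± 0.24 (adjusted p = 0.0243), a call that ended with array weights and without normoxia solvent 1 (adjusted p = 0.0774) or 3 (adjusted p = 0.0765) or hypoxia solvent 1 (adjusted p = 0.0541) or 3 (adjusted p = 0.158). FADS1, its partner desaturase, rose by 0.43 in DU145, a call that ended with median scaling and without normoxia solvent 2 (adjusted p = 0.0655), and by 0.51 in PC-3. ACSS2, which makes acetyl-CoA from acetate, rose by 0.79 in DU145. There its second probe gave 0.71 and was called, and a dim probe, above background on 29 of 36 arrays, gave 0.37 and was not called. FASN, fatty acid synthase, was not called in any line (0.08 ± 0.18, 0.05 ± 0.18 and 0.29 ± 0.18 in DU145, PC-3 and 22Rv1), nor were ACACA, acetyl-CoA carboxylase, and ACLY, ATP citrate lyase. The brighter probe of ELOVL6, a fatty acid elongase, was not called (-0.35, -0.44 and -0.42), and its dimmer probe was called lower in all 3 lines (-0.45, -0.53 and -0.79).

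The hypoxia response itself was compared between lines by the difference of the changes. The change was higher in DU145 than in 22Rv1 in 15 of 31 genes (3% of all genes were called higher and 5.76% in either direction). It was higher in DU145 than in PC-3 in 6 (1.84% and 2.85%), and higher in PC-3 than in 22Rv1 in 8 (2.03% and 5.19%). No gene of the list was called in the other direction in any of the 3 differences (limma, 0, 1 and 0 at an unadjusted p under 0.05 for DU145 minus PC-3, DU145 minus 22Rv1 and PC-3 minus 22Rv1), and 22Rv1 entered 2 of the 3 comparisons, DU145 also 2, so that these differences share arrays. The DU145 minus 22Rv1 difference was 1.72 ± 0.25 for HMGCS1 (adjusted p = 2.85e-05), 1.59 ± 0.19 for INSIG1 (adjusted p = 8.3e-07), 1.44 ± 0.17 for MSMO1 (adjusted p = 6.35e-07) and 1.12 ± 0.18 for SQLE (adjusted p = 7.79e-05). It took in 6 of 7 mevalonate genes, 7 of 11 sterol genes, 1 of 5 control genes and 1 of 8 fatty acid genes.

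DU145 minus PC-3 was largest for TM7SF2 (1.57 ± 0.30, adjusted p = 0.00239), HMGCS1 (1.07 ± 0.25, adjusted p = 0.0159) and MVD (0.94 ± 0.23, adjusted p = 0.0198), with INSIG1 at 0.75 ± 0.19 (adjusted p = 0.0263). With median scaling 1 gene was called, and 3 were called without DU145 hypoxia solvent 1, DU145 hypoxia solvent 3 or PC-3 hypoxia solvent 3. The INSIG1 difference ended with median scaling (adjusted p = 0.301), with the mean of both probes (adjusted p = 0.0659), with the arrays of the pair alone (adjusted p = 0.0619) and without any of 6 arrays (adjusted p up to 0.0808). PC-3 minus 22Rv1 was largest for MSMO1 (1.05 ± 0.17, adjusted p = 0.000121), SQLE (0.91 ± 0.18, adjusted p = 0.00118) and SC5D (0.89 ± 0.15, adjusted p = 0.000307), with INSIG1 at 0.84 ± 0.19 (adjusted p = 0.00665). There 5 genes were called without PC-3 hypoxia solvent 2, PC-3 normoxia solvent 3 or 22Rv1 normoxia solvent 1, and 4 with median scaling. SCD and FASN were not called in any of the 3 differences.

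Hypoxia was also compared on the vorinostat arrays, which share no array with the comparison above. In DU145, 11 genes rose (4.65% of all genes) and 1 fell (4.32%), in PC-3 5 rose (6.83%) and 1 fell (7.08%), and the genes that fell were ELOVL6 in DU145 (-1.03 ± 0.21, adjusted p = 0.00146) and TM7SF2 in PC-3 (-0.73 ± 0.21, adjusted p = 0.0189). In 22Rv1 2 rose (9.63%) and 9 fell (12.2%). INSIG2 rose by 0.82 ± 0.11 in DU145, 1.17 ± 0.11 in PC-3 and 2.16 ± 0.11 in 22Rv1 (largest adjusted p = 6.09e-06), and SCD by 0.65 ± 0.13, 0.56 ± 0.13 and 0.70 ± 0.13 (largest adjusted p = 0.00417). INSIG1 rose in DU145 (0.99 ± 0.14, adjusted p = 9.29e-06) and HMGCS1 also (0.64 ± 0.18, adjusted p = 0.0211), while HMGCS1 fell in 22Rv1 (-0.53 ± 0.18, adjusted p = 0.0329). On these arrays the response of DU145 exceeded that of PC-3 in 0 genes (limma, 1.76% of all genes called, 5 members higher and 2 lower at an unadjusted p under 0.05). The 1.76% is at the adjusted threshold, and the share of all genes at the unadjusted one was not taken. The response differed from that of 22Rv1 in 13 genes for DU145 (7.38%) and 8 for PC-3 (5.78%). INSIG2 was among them, with a smaller rise than in 22Rv1 in DU145 (-1.34 ± 0.15, adjusted p = 3.46e-07) and PC-3 (-0.99 ± 0.15, adjusted p = 6.07e-05).

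**Figure D2:**
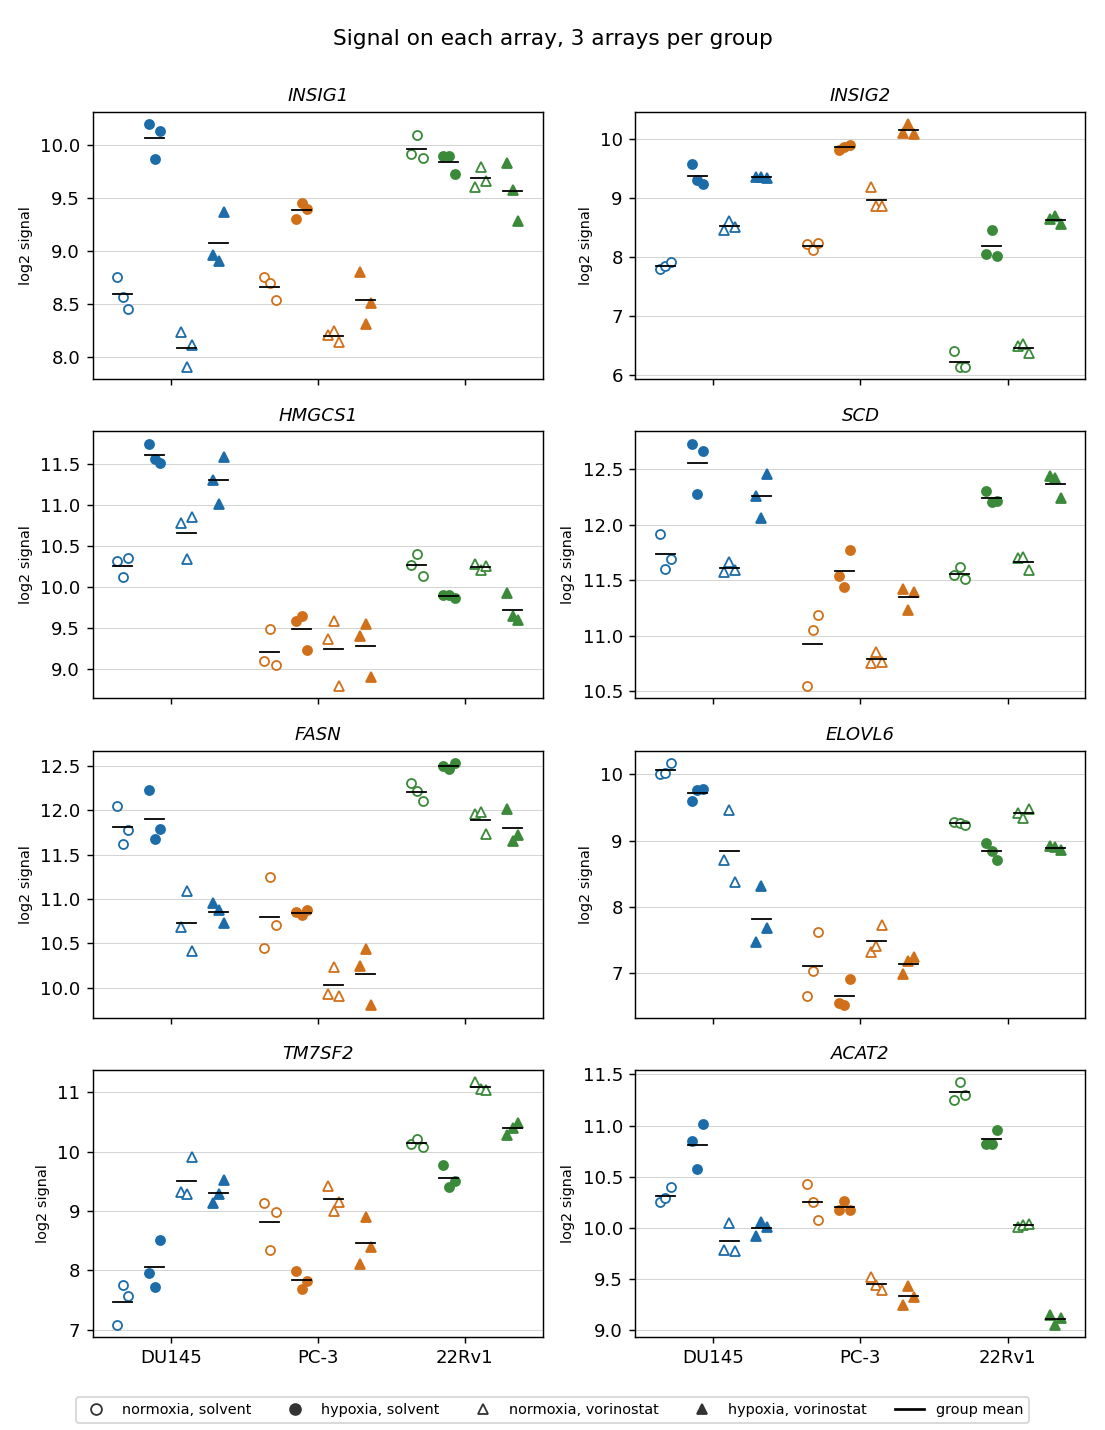
Log2 signal (neqc) on each of the 36 arrays for 8 genes, in the order normoxia solvent, hypoxia solvent, normoxia vorinostat, hypoxia vorinostat within each line. Circles are solvent and triangles vorinostat arrays, filled symbols are hypoxic, and lines mark group means of 3 arrays. INSIG2 and SCD step up with each filled symbol, HMGCS1 steps up by more than 1 log2 unit between the DU145 solvent groups, FASN and ACAT2 are lower for triangles, and ELOVL6 is lower for triangles in DU145.

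The second comparison asks what vorinostat changed, as the mean of its effect in normoxia and in hypoxia (6 vorinostat against 6 solvent arrays per line). It shares its solvent arrays with the hypoxia comparison above. FASN, ACACA, FADS1, ACAT2, MVK, MVD, EBP and INSIG1 fell in all 3 lines, while INSIG2, TM7SF2 and ACSS2 rose in all 3, INSIG2 in DU145 in normoxia and not in hypoxia (-0.02, adjusted p = 0.908). The drug changed 52.6% of all genes tested in DU145, 39.5% in PC-3 and 45.3% in 22Rv1, against which the counts of the list are to be read. In DU145, 6 of 31 genes rose (27.9% of all genes) and 14 fell (24.7%), with a median log2 change of -0.21 against 0.01 over all genes. In PC-3, 7 rose (19.8%) and 10 fell (19.7%), with a median of -0.08 against -0.00, and 3 rose and 10 fell with median scaling. In 22Rv1, 4 rose (22.9%) and 14 fell (22.4%), with a median of -0.20 against -0.00. The 8 genes that fell in all 3 lines compare with 7.88% of all genes, and the 3 that rose with 7.43%.

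**Figure D3:**
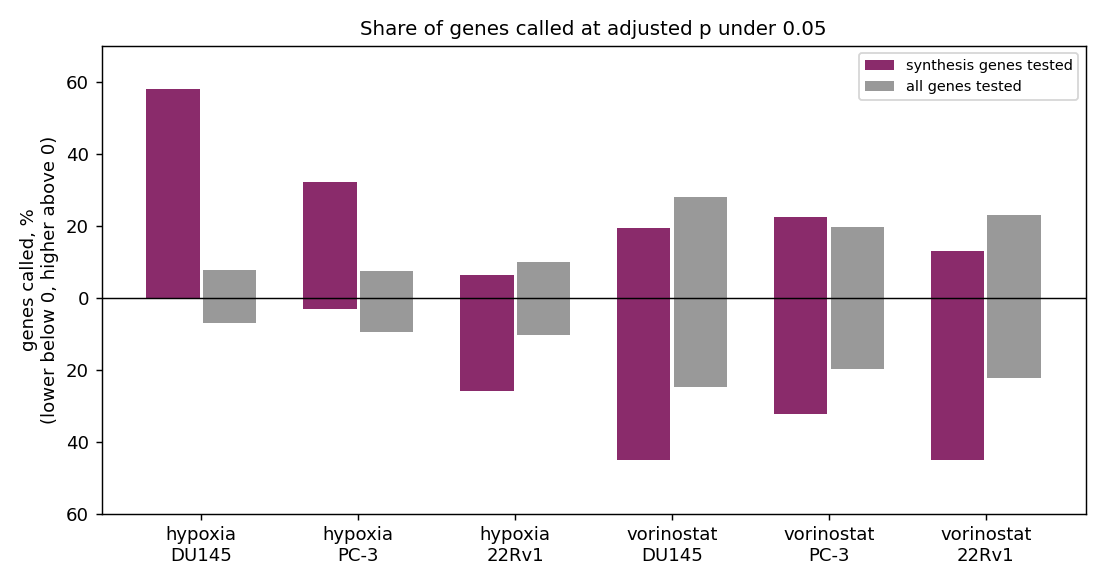
Share of genes called higher (above 0) or lower (below 0), in percent, for the 31 synthesis genes tested (purple) and all 12360 genes tested (grey). The purple bar reaches 58.1% higher for hypoxia in DU145 against 7.84% of all genes, and the purple bars point down for hypoxia in 22Rv1 and mostly down for vorinostat.

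**Figure D4:**
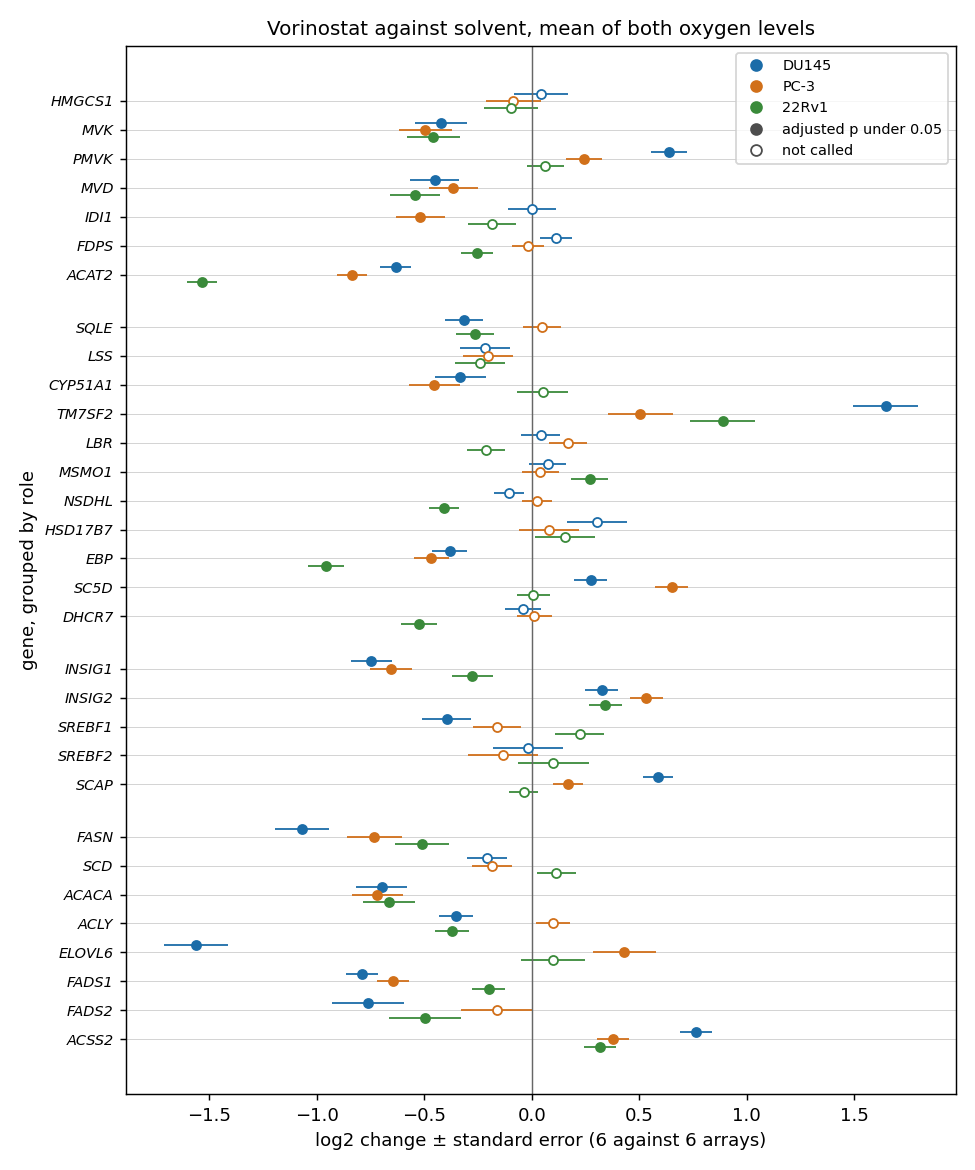
Log2 change with vorinostat for the 31 genes tested, as the mean of both oxygen levels, with bars for the standard error from limma. Filled points were called at an adjusted p under 0.05. FASN, ACACA and FADS1 lie left of 0 in all 3 lines, TM7SF2, INSIG2 and ACSS2 right of it, and ELOVL6 is far left in DU145 alone.

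Of the 8 fatty acid genes, 6 fell and 1 rose in DU145 (24.7% and 27.9% of all genes), 3 fell and 2 rose in PC-3 (19.7% and 19.8%), and 5 fell and 1 rose in 22Rv1 (22.4% and 22.9%). FASN had log2 signals of 12.05, 11.62 and 11.78 (normoxia) and 12.23, 11.67 and 11.79 (hypoxia) on DU145 solvent arrays, and 10.68, 11.09 and 10.41, and 10.96, 10.88 and 10.72, on the vorinostat arrays. In PC-3 it had 10.45, 11.25 and 10.71, and 10.85, 10.81 and 10.87, with solvent, and 9.93, 10.23 and 9.91, and 10.24, 10.44 and 9.80, with vorinostat. In 22Rv1 it had 12.30, 12.22 and 12.10, and 12.50, 12.46 and 12.54, against 11.96, 11.98 and 11.73, and 12.02, 11.65 and 11.72. At each oxygen level the drug-treated arrays of every line lay below the solvent arrays of that line. FASN fell by 1.07 in DU145 (SE 0.13, adjusted p = 2.56e-08), 0.73 in PC-3 (SE 0.13, adjusted p = 2.67e-05) and 0.51 in 22Rv1 (SE 0.13, adjusted p = 0.0014).

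ELOVL6 changed in opposite directions in DU145 and PC-3. In DU145 its log2 signal was 10.01, 10.02 and 10.18 in normoxia with solvent, 8.71, 9.46 and 8.38 with vorinostat, 9.60, 9.77 and 9.79 in hypoxia with solvent and 7.46, 8.31 and 7.67 with both. In PC-3 the same groups had 6.66, 7.03 and 7.61, then 7.31, 7.41 and 7.73, then 6.55, 6.51 and 6.91, then 6.98, 7.17 and 7.25. The DU145 groups were apart at both oxygen levels with a wide spread under the drug, and the PC-3 groups overlapped in normoxia. Vorinostat gave log2 changes of -1.56 ± 0.15 in DU145 (2.95-fold lower, adjusted p = 2.95e-10), 0.43 ± 0.15 in PC-3 (adjusted p = 0.0201) and 0.10 ± 0.15 in 22Rv1 (adjusted p = 0.632). The second probe of ELOVL6 gave -1.53, 0.36 and 0.02. The PC-3 call ended with median scaling, without background correction, with the deposited processed values, with array weights and without normoxia solvent 1 (adjusted p = 0.0883), hypoxia solvent 2 (adjusted p = 0.0515) or normoxia vorinostat 3 (adjusted p = 0.0616).

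ACACA, which commits acetyl-CoA to fatty acids, fell by 0.70 ± 0.12 in DU145, 0.72 ± 0.12 in PC-3 and 0.66 ± 0.12 in 22Rv1 (largest adjusted p = 2.79e-05). Its log2 signal in PC-3 was 7.98, 8.94 and 8.33 in normoxia and 8.51, 8.49 and 8.65 in hypoxia with solvent, against 7.59, 8.0 and 7.74, and 7.95, 7.79 and 7.51, with vorinostat. In 22Rv1 it was 9.80, 9.61 and 9.63, and 9.79, 9.73 and 9.80, against 9.07, 8.93 and 9.05, and 9.23, 8.96 and 9.14. The groups were apart in 22Rv1 at both oxygen levels and overlapped slightly in normoxic PC-3. FADS1 in DU145 was 10.21, 9.82 and 10.06, and 10.51, 10.35 and 10.52, with solvent and 9.29, 9.40 and 9.22, and 9.56, 9.70 and 9.56, with vorinostat, with no overlap at either oxygen level. It fell by 0.79 ± 0.08 (adjusted p = 3.47e-10), by 0.64 ± 0.08 in PC-3 (adjusted p = 4.58e-08) and by 0.20 ± 0.08 in 22Rv1 (adjusted p = 0.0299), where the call ended with cyclic loess and without any of 7 arrays (adjusted p up to 0.0853).

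Of the other fatty acid genes, ACLY fell by 0.35 in DU145 and 0.37 in 22Rv1. A second, dimmer ACLY probe, above background on all 36 arrays, gave -0.47 and -0.24 in these lines and was called in DU145 alone. FADS2 fell by 0.76 in DU145 and 0.49 in 22Rv1, where its call ended without background correction, with the deposited processed values and without normoxia solvent 2 (adjusted p = 0.0636), hypoxia solvent 2 (adjusted p = 0.0666) or normoxia vorinostat 3 (adjusted p = 0.0531). FADS2 was above background on 0 of 3 normoxic vorinostat arrays of DU145, where it was at least 1.53-fold lower than with solvent. ACSS2 rose by 0.76 ± 0.07 in DU145 (adjusted p = 4.6e-10), 0.38 ± 0.07 in PC-3 (adjusted p = 0.000127) and 0.32 ± 0.07 in 22Rv1 (adjusted p = 0.000667), and the 22Rv1 call ended with median scaling (adjusted p = 0.0887). Its second probe gave 0.74, 0.42 and 0.32 and was called in each line. A dim probe of ACSS2, above background on 29 of 36 arrays, gave 0.26, 0.31 and 0.04 and was called in no line. SCD was not called: its log2 changes were -0.21 ± 0.09 in DU145 (adjusted p = 0.0581), -0.18 ± 0.09 in PC-3 (adjusted p = 0.12) and 0.12 ± 0.09 in 22Rv1 (adjusted p = 0.34), and the DU145 value passed the threshold under 8 alternatives (lowest adjusted p = 0.0119).

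The INSIG genes moved apart under the drug. INSIG1 in PC-3 had log2 signals of 8.76, 8.70 and 8.54 in normoxia and 9.30, 9.45 and 9.39 in hypoxia with solvent, against 8.21, 8.24 and 8.15, and 8.80, 8.31 and 8.51, with vorinostat. In DU145 the vorinostat arrays read 8.24, 7.91 and 8.11, and 8.97, 8.91 and 9.37, against the solvent values given above. Both lines were lower on every drug-treated array than on every solvent array of the same oxygen level. INSIG1 fell by 0.75 in DU145 (SE 0.10, adjusted p = 1.07e-07), 0.65 in PC-3 (SE 0.10, adjusted p = 2.16e-06) and 0.28 in 22Rv1 (SE 0.10, adjusted p = 0.0189). The 22Rv1 call ended without normoxia solvent 2 (adjusted p = 0.0553) and without hypoxia vorinostat 3 (adjusted p = 0.0849), and with the mean of both probes (adjusted p = 0.27). The dimmer INSIG1 probe was not called in any line (-0.24, -0.03 and -0.03).

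INSIG2 rose by 0.32 ± 0.08 in DU145 (adjusted p = 0.000631), as the mean of 0.67 in normoxia and -0.02 in hypoxia, by 0.53 ± 0.08 in PC-3 (adjusted p = 1.55e-06) and 0.34 ± 0.08 in 22Rv1 (adjusted p = 0.000465). In PC-3 its vorinostat arrays read 9.18, 8.86 and 8.86 in normoxia and 10.10, 10.24 and 10.07 in hypoxia, all above the solvent arrays of the same oxygen level. SREBF1 in DU145 read 6.90, 6.61 and 6.49, and 6.99, 6.56 and 6.45, with solvent and 6.1, 6.16 and 6.22, and 6.70, 6.12 and 6.32, with vorinostat, and the groups overlapped in hypoxia. It fell in DU145 (-0.40 ± 0.11, adjusted p = 0.00388) and was not called in PC-3 (-0.16 ± 0.11, adjusted p = 0.281) or 22Rv1 (0.22 ± 0.11, adjusted p = 0.112). The DU145 call ended with median scaling (adjusted p = 0.13) and with the mean of both probes (adjusted p = 0.0585). The dimmer SREBF1 probe, above background on 17 arrays, was called lower in PC-3 (-0.32, adjusted p = 0.0427). That probe was not called in DU145 (-0.06, adjusted p = 0.738) or 22Rv1 (0.16, adjusted p = 0.354), so the probes placed the fall in different lines. SCAP rose by 0.59 in DU145 and 0.17 in PC-3, the latter a call that ended under 13 alternatives.

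Of the 7 mevalonate genes, 3 fell and 1 rose in DU145 (24.7% and 27.9% of all genes), 4 fell and 1 rose in PC-3 (19.7% and 19.8%), and 4 fell and 0 rose in 22Rv1 (22.4% and 22.9%). ACAT2 was the gene that fell most in PC-3 and 22Rv1. In 22Rv1 its log2 signal was 11.25, 11.43 and 11.29 in normoxia and 10.82, 10.82 and 10.96 in hypoxia with solvent, and 10.01, 10.03 and 10.04, and 9.14, 9.05 and 9.11, with vorinostat. In PC-3 it was 10.43, 10.25 and 10.07, and 10.18, 10.26 and 10.17, against 9.51, 9.44 and 9.39, and 9.25, 9.43 and 9.32. The groups did not overlap at either oxygen level in either line. The log2 changes were -1.53 ± 0.07 in 22Rv1 (2.89-fold lower, adjusted p = 3.55e-17), -0.84 ± 0.07 in PC-3 (adjusted p = 1e-10) and -0.63 ± 0.07 in DU145 (adjusted p = 8.03e-09).

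MVK and MVD fell in all 3 lines, by 0.42, 0.49 and 0.46 for MVK and by 0.45, 0.36 and 0.54 for MVD (DU145, PC-3 and 22Rv1). The MVK call in DU145 ended with median scaling (adjusted p = 0.118), and the MVD call in PC-3 ended without hypoxia vorinostat 3 (adjusted p = 0.0578). PMVK rose by 0.64 in DU145 and 0.24 in PC-3, the latter a call that ended with median scaling, when PC-3 was fitted by itself and without any of 3 arrays (adjusted p up to 0.0813). IDI1 in PC-3 read 7.0, 6.80 and 6.84, and 7.40, 7.47 and 7.19, with solvent and 6.74, 6.23 and 6.64, and 6.71, 6.76 and 6.53, with vorinostat (log2 signal), with every drug-treated array lower. IDI1 fell by 0.52 in PC-3 and FDPS fell by 0.25 in 22Rv1. HMGCS1, the mevalonate gene that rose most in hypoxic DU145, was not called for vorinostat in any line (0.04 ± 0.13, -0.08 ± 0.13 and -0.10 ± 0.13). These are means of both oxygen levels. In DU145 the rise in hypoxia was smaller on vorinostat than on solvent arrays, so the drug's effect was lower in hypoxia than in normoxia. That difference between oxygen levels was not called.

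Of the 11 genes of squalene and sterol steps, 3 fell and 2 rose in DU145 (24.7% and 27.9% of all genes), 2 fell and 2 rose in PC-3 (19.7% and 19.8%), and 4 fell and 2 rose in 22Rv1 (22.4% and 22.9%). TM7SF2 in DU145 had log2 signals of 7.09, 7.75 and 7.57 in normoxia and 7.95, 7.71 and 8.51 in hypoxia with solvent, and 9.32, 9.28 and 9.92, and 9.14, 9.28 and 9.51, with vorinostat. In 22Rv1 it had 10.13, 10.21 and 10.08, and 9.78, 9.40 and 9.50, against 11.17, 11.05 and 11.04, and 10.28, 10.40 and 10.49. The drug-treated arrays were all higher in these lines. TM7SF2 rose by 1.65 ± 0.15 in DU145 (3.13-fold, adjusted p = 1.31e-10), 0.51 ± 0.15 in PC-3 (adjusted p = 0.00746) and 0.89 ± 0.15 in 22Rv1 (adjusted p = 1.17e-05), and the PC-3 call ended with median scaling (adjusted p = 0.057).

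EBP fell in all 3 lines, most in 22Rv1, where its log2 signal was 10.77, 10.94 and 10.82, and 10.47, 10.26 and 10.32, with solvent and 10.00, 10.15 and 10.01, and 9.47, 9.07 and 9.15, with vorinostat. No drug-treated array reached a solvent array of its oxygen level. EBP changed by -0.96 ± 0.08 in 22Rv1 (adjusted p = 4.91e-11), -0.47 ± 0.08 in PC-3 (adjusted p = 3.23e-05) and -0.38 ± 0.08 in DU145 (adjusted p = 0.000237). SQLE fell by 0.32 in DU145 (SE 0.09, adjusted p = 0.00316) and 0.26 in 22Rv1 (SE 0.09, adjusted p = 0.0153) and was not called in PC-3 (0.05 ± 0.09, adjusted p = 0.715). The 22Rv1 call of SQLE ended without normoxia vorinostat 2 (adjusted p = 0.0542) or hypoxia vorinostat 2 (adjusted p = 0.0515). The dimmer SQLE probe gave -0.30, 0.04 and -0.16 in DU145, PC-3 and 22Rv1, and was called in DU145 alone.

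The remaining sterol genes were called in single lines or pairs of lines. SC5D in PC-3 read 9.21, 9.21 and 9.31 in normoxia and 9.63, 9.37 and 9.85 in hypoxia with solvent, against 9.71, 9.66 and 9.56, and 10.57, 10.45 and 10.53, with vorinostat (log2 signal), with no overlap at either oxygen level. It rose by 0.65 in PC-3 and 0.27 in DU145. CYP51A1 fell by 0.45 in PC-3 and 0.33 in DU145, where its call ended with median scaling, with cyclic loess and without any of 3 arrays (adjusted p up to 0.0696). DHCR7 in 22Rv1 read 9.44, 9.47 and 9.27, and 9.18, 9.10 and 9.04, with solvent and 9.0, 8.88 and 8.86, and 8.59, 8.57 and 8.46, with vorinostat, again with no overlap. DHCR7 fell by 0.52, NSDHL fell by 0.41 and MSMO1 rose by 0.27 in 22Rv1, and the MSMO1 call ended with median scaling and with the mean of its probes. LSS, LBR and HSD17B7 were not called in any line, although the dim LBR probe was called lower in PC-3 (-0.37, adjusted p = 0.0236).

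The drug's effect was compared between lines in the same way. It differed between DU145 and PC-3 in 9 of 31 genes (5 higher and 4 lower in DU145, against 17.7% and 13.3% of all genes, 31% in all). It differed between DU145 and 22Rv1 in 15 (9 and 6, against 21.2% and 18.2%, 39.4% in all) and between PC-3 and 22Rv1 in 10 (7 and 3, against 13.5% and 14.7%, 28.2% in all). ELOVL6 had the largest differences, at -1.99 ± 0.21 for DU145 minus PC-3 (adjusted p = 1.46e-08) and -1.66 ± 0.21 for DU145 minus 22Rv1 (adjusted p = 1.89e-07). TM7SF2 rose more in DU145 than in PC-3 (1.14 ± 0.21, adjusted p = 0.000112) and 22Rv1 (0.76 ± 0.21, adjusted p = 0.00496). ACAT2 fell less in DU145 (0.90 ± 0.10, adjusted p = 2.05e-08) and in PC-3 (0.70 ± 0.10, adjusted p = 2.81e-06) than in 22Rv1.

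Smaller differences were called for IDI1 (0.52 ± 0.16, adjusted p = 0.0132) and SQLE (-0.37 ± 0.12, adjusted p = 0.0251) between DU145 and PC-3. Between PC-3 and 22Rv1 they were called for SC5D (0.64 ± 0.11, adjusted p = 3.38e-05), DHCR7 (0.54 ± 0.12, adjusted p = 0.000769) and INSIG1 (-0.38 ± 0.14, adjusted p = 0.0369). Between DU145 and 22Rv1 the control genes SREBF1 (-0.62 ± 0.16, adjusted p = 0.00253) and INSIG1 (-0.47 ± 0.14, adjusted p = 0.00654) differed, as did FASN (-0.56 ± 0.18, adjusted p = 0.0139) and SCD (-0.32 ± 0.13, adjusted p = 0.0488). With median scaling the calls of SQLE, SREBF1, FASN and SCD and both of INSIG1 ended. The call of SCD also ended without any of 19 of the 24 arrays, that of INSIG1 between PC-3 and 22Rv1 without any of 13, and that of SQLE without DU145 hypoxia solvent 1 (adjusted p = 0.0513), PC-3 normoxia solvent 1 (adjusted p = 0.051), PC-3 hypoxia solvent 1 (adjusted p = 0.0527), PC-3 normoxia vorinostat 2 (adjusted p = 0.0586) or PC-3 hypoxia vorinostat 2 (adjusted p = 0.0533).

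Taken at each oxygen level by itself, vorinostat raised 8 and lowered 11 genes in normoxic DU145 (22.2% and 18.6% of all genes) and raised 5 and lowered 14 in hypoxic DU145 (22.1% and 19.2%), where 40.7% and 41.3% of all genes were called in either direction. In PC-3 it raised 2 and lowered 7 in normoxia (12.3% and 13.4%) and raised 6 and lowered 8 in hypoxia (14.5% and 13.8%), with 25.7% and 28.4% of all genes called. In 22Rv1 it raised 3 and lowered 8 in normoxia (16.4% and 14.9%) and raised 3 and lowered 11 in hypoxia (16.5% and 16.9%), with 31.3% and 33.4% called. The normoxic 22Rv1 count was 7 without normoxia solvent 2.

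The test of the difference between oxygen levels found 1 of 31 genes in DU145 (0.728% of all genes), 0 in PC-3 (0.0566%) and 0 in 22Rv1 (0.728%). Of all genes, 0.21% were higher and 0.518% lower in DU145, 0.00809% and 0.0485% in PC-3 and 0.146% and 0.583% in 22Rv1. At an unadjusted p under 0.05 in limma there were 11 genes in DU145, all lower, 4 in PC-3 and 2 in 22Rv1. The share of all genes at that unadjusted threshold was not taken, so these counts cannot be set against the shares above. The gene called at the adjusted threshold was INSIG2. In normoxic DU145 its vorinostat arrays read 8.46, 8.61 and 8.5, above the solvent arrays at 7.79, 7.85 and 7.92, while in hypoxia they read 9.35, 9.35 and 9.33, within the range of the solvent arrays at 9.56, 9.30 and 9.23. Vorinostat raised it by 0.67 ± 0.11 in normoxia (adjusted p = 9.55e-06) and gave -0.02 ± 0.11 in hypoxia (adjusted p = 0.908), a difference of -0.69 ± 0.15 (adjusted p = 0.0231). That call ended with median scaling (adjusted p = 0.467), with the arrays of DU145 alone (adjusted p = 0.141) and without hypoxia solvent 1 (adjusted p = 0.0856), hypoxia vorinostat 1 (adjusted p = 0.0502) or 3 (adjusted p = 0.0559), normoxia solvent 2 (adjusted p = 0.0506) or normoxia vorinostat 2 (adjusted p = 0.0679). The replicate block went the other way and gave more calls in DU145, a count stated further below.

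The third comparison sets the lines side by side without hypoxia or drug, from the 3 normoxic solvent arrays of each. More genes of the list were called lower than higher in PC-3 and in DU145 when each was set against 22Rv1. PC-3 was below 22Rv1 in 20 genes (36.4% of all genes) and above it in 7 (31.9%), with a median log2 difference of -0.71 against -0.06 over all genes. DU145 was below 22Rv1 in 14 (34.4%) and above it in 6 (30.4%), or 19 and 3 with median scaling, with a median of -0.20 against -0.03. DU145 was above PC-3 in 11 (31.3%) and below it in 7 (31%), with a median of 0.03 against 0.01. All 7 mevalonate genes were lower in PC-3 than in 22Rv1.

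**Figure D5:**
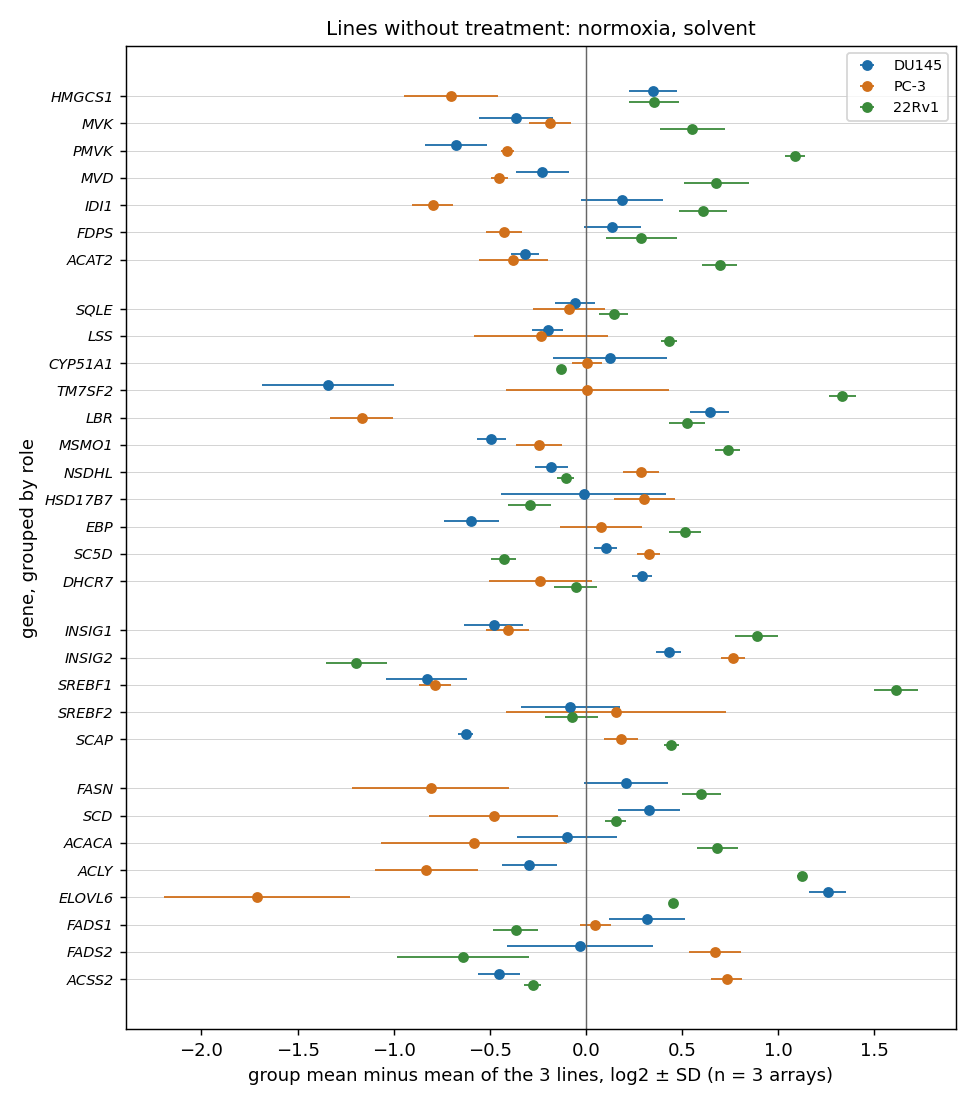
Log2 signal in normoxia with solvent for the 31 genes tested, as the group mean minus the mean of the 3 lines, with bars for the SD of 3 arrays. 22Rv1 lies right of the other lines for most genes of the mevalonate group and for SREBF1, TM7SF2 and ACLY, and left of them for INSIG2, while PC-3 is far left for ELOVL6.

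SREBF1, the SREBP gene that favours fatty acid targets, had log2 signals of 9.01, 9.23 and 9.07 in 22Rv1, 6.63, 6.70 and 6.80 in PC-3 and 6.90, 6.61 and 6.49 in DU145. The 22Rv1 arrays stood more than 2 log2 units above the others, and DU145 and PC-3 overlapped. DU145 minus 22Rv1 was -2.44 ± 0.16 (5.42-fold lower, adjusted p = 2.06e-14) and PC-3 minus 22Rv1 was -2.39 ± 0.16 (adjusted p = 2.8e-14), while DU145 minus PC-3 was -0.04 ± 0.16 (adjusted p = 0.828). INSIG2 ran the other way, at 6.41, 6.14 and 6.14 in 22Rv1, 7.79, 7.85 and 7.92 in DU145 and 8.22, 8.12 and 8.23 in PC-3. The order was PC-3, DU145, 22Rv1, with every neighbour apart: PC-3 minus 22Rv1 was 1.96 ± 0.11 (adjusted p = 3e-16), DU145 minus 22Rv1 1.62 ± 0.11 (adjusted p = 3.29e-14) and DU145 minus PC-3 -0.33 ± 0.11 (adjusted p = 0.0085). INSIG1 was lower in DU145 (-1.37, adjusted p = 2.91e-10) and PC-3 (-1.29, adjusted p = 8.23e-10) than in 22Rv1, and SCAP was lowest in DU145.

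ELOVL6 had log2 signals of 10.01, 10.02 and 10.18 in DU145, 9.29, 9.26 and 9.24 in 22Rv1 and 6.66, 7.03 and 7.61 in PC-3. No arrays of different lines overlapped, and the order was DU145, 22Rv1, PC-3. DU145 minus PC-3 was 2.97 ± 0.21 (7.83-fold, adjusted p = 1.85e-13), PC-3 minus 22Rv1 was -2.16 ± 0.21 (adjusted p = 1.41e-10) and DU145 minus 22Rv1 was 0.80 ± 0.21 (adjusted p = 0.00123). TM7SF2 had 10.13, 10.21 and 10.08 in 22Rv1, 9.14, 8.33 and 8.97 in PC-3 and 7.09, 7.75 and 7.57 in DU145, again with no overlap. DU145 minus 22Rv1 was -2.67 ± 0.21 (adjusted p = 1.83e-12) and DU145 minus PC-3 was -1.35 ± 0.21 (adjusted p = 2.04e-06).

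LBR had 8.69, 8.70 and 8.52 in DU145, 8.46, 8.62 and 8.47 in 22Rv1 and 6.93, 6.91 and 6.64 in PC-3. PC-3 stood apart from both, and DU145 and 22Rv1 overlapped (DU145 minus PC-3 1.81 ± 0.13, adjusted p = 1.79e-13; DU145 minus 22Rv1 0.12 ± 0.13, adjusted p = 0.431). PMVK had 10.14, 10.05 and 10.14 in 22Rv1, 8.62, 8.64 and 8.58 in PC-3 and 8.42, 8.46 and 8.16 in DU145. The 22Rv1 arrays stood apart, and DU145 lay just below PC-3. DU145 minus 22Rv1 was -1.76 ± 0.12 (adjusted p = 4e-14) and DU145 minus PC-3 was -0.27 ± 0.12 (adjusted p = 0.0522).

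HMGCS1 was lower in PC-3 than in DU145 (DU145 minus PC-3 1.05, adjusted p = 7.37e-06) and 22Rv1 (PC-3 minus 22Rv1 -1.06, adjusted p = 5.54e-06), which did not differ beyond their spread (-0.00 ± 0.18, adjusted p = 0.987). FASN was likewise lower in PC-3 than in DU145 (1.02 in the same sense, adjusted p = 1.25e-05) and 22Rv1 (-1.41, adjusted p = 4.12e-08), and DU145 minus 22Rv1 was -0.39 ± 0.18 (adjusted p = 0.0581). SCD was lower in PC-3 too (0.81 for DU145 minus PC-3, adjusted p = 3.43e-06, and -0.63 for PC-3 minus 22Rv1, adjusted p = 8.64e-05). SQLE was called in none of the 3 pairs (0.03, -0.20 and -0.23). Of the 8 fatty acid genes, 6 were higher and 2 lower in DU145 than in PC-3 (31.3% and 31% of all genes), and ACSS2 and FADS2 were the 2 that were lower.

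Genes next to these pathways were followed as 6 further lists, also chosen with earlier results of these data known. Their counts are to be read against all genes, of which 27.9%, 19.8% and 22.9% were called higher and 24.7%, 19.7% and 22.4% lower under vorinostat in DU145, PC-3 and 22Rv1. In hypoxia the shares were 7.84%, 7.35% and 9.89% higher and 6.91%, 9.53% and 10.3% lower in the same order. Fatty acid oxidation, which burns what synthesis makes, rose under vorinostat in 9 of 14 genes in DU145, 10 in PC-3 and 8 in 22Rv1, and fell in 1, 0 and 2 (medians 0.38, 0.26 and 0.25). HADHB, a subunit of the mitochondrial trifunctional protein, rose by 0.74 ± 0.07 in DU145 (adjusted p = 7.3e-11), CPT1A, which admits fatty acids to the mitochondrion, by 0.66 ± 0.12 in PC-3 (adjusted p = 3.6e-05) and ECI2, an enoyl-CoA isomerase, by 0.91 ± 0.09 in 22Rv1 (adjusted p = 8.8e-10). In hypoxia 1 of these 14 genes was higher and 0 lower in DU145, 0 and 2 in PC-3 and 0 and 0 in 22Rv1. Isoprenoid use, which attaches farnesyl and geranylgeranyl groups or builds ubiquinone and dolichol, fell under vorinostat in 6 of 12 genes in DU145, 7 in PC-3 and 8 in 22Rv1, and rose in 1, 0 and 2 (medians -0.12, -0.26 and -0.24). In hypoxia 1 of these 12 rose and 3 fell in DU145, 0 and 3 in PC-3 and 0 and 2 in 22Rv1. FNTB, the farnesyltransferase beta subunit, fell by 0.75 in DU145 (adjusted p = 1.9e-09) and 0.83 in PC-3 (adjusted p = 6.5e-10), and COQ2, a ubiquinone synthesis enzyme, fell by 1.37 in 22Rv1 (adjusted p = 1.4e-15).

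Sterol efflux, esterification and traffic had 4 of 13 genes higher and 2 lower under vorinostat in DU145, 4 and 2 in PC-3 and 3 and 2 in 22Rv1. LIPA, the lysosomal acid lipase that frees cholesterol from its esters, rose by 1.22 ± 0.08 in DU145 (adjusted p = 1.7e-13), 0.80 ± 0.08 in PC-3 (adjusted p = 3.2e-09) and 1.18 ± 0.08 in 22Rv1 (adjusted p = 3.7e-13). NPC2, which binds cholesterol in the lysosome, rose by 1.06, 0.52 and 0.54 in the same lines. NPC1 and MYLIP, also on this list, rose more than NPC2 in PC-3, by 0.96 ± 0.11 (adjusted p = 2.8e-08) and 0.74 ± 0.08 (adjusted p = 4.2e-09). In hypoxia 2, 3 and 3 of these 13 genes rose and 0, 1 and 1 fell, with ABCA1, a cholesterol exporter, at 1.27 ± 0.23 in DU145 (adjusted p = 0.00018). Glycerolipid synthesis had 5 of 12 genes higher and 5 lower under vorinostat in DU145, 6 and 1 in PC-3 and 4 and 1 in 22Rv1. CDS1, which makes CDP-diacylglycerol, rose by 1.34 ± 0.12 in DU145 (adjusted p = 7.9e-11). In hypoxia 0, 1 and 2 of these 12 rose and 1 fell in each line.

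The list of other fatty acid synthesis and elongation genes had 5 of 11 higher and 2 lower under vorinostat in DU145, 4 and 2 in PC-3 and 4 and 1 in 22Rv1. SCD5, a second desaturase gene, rose by 1.29 ± 0.10 in 22Rv1 (adjusted p = 2.8e-12), where it was above background on 2 of 6 solvent arrays, and ACACB, the mitochondrial acetyl-CoA carboxylase, fell by 0.88 in PC-3 (adjusted p = 2.6e-06). In hypoxia 5, 2 and 2 of these 11 rose and 0 fell. Of 14 genes of SREBP processing and INSIG partners, 2 rose and 2 fell under vorinostat in DU145, 1 and 1 in PC-3 and 4 and 1 in 22Rv1, and 1, 1 and 1 rose and 1, 0 and 1 fell in hypoxia. ERLIN1, an endoplasmic reticulum protein that binds the SREBP, SCAP and INSIG complex, fell under vorinostat by 0.60 in DU145 (adjusted p = 6.4e-07), 0.31 in PC-3 (adjusted p = 0.0047) and 0.36 in 22Rv1 (adjusted p = 0.00091). ERLIN2, also on this list, went the other way, rising under the drug by 0.71 in PC-3 and 0.36 in 22Rv1, and was not called in DU145.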

How the data were processed

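RNA of 36 samples in 12 groups of 3 was measured on Illumina bead arrays. The deposited raw table gives, per the file headers, a signal intensity and a detection p-value for each of 47323 probes on each array, and BeadStudio 3.1.3.0 was used per the submitters' processing notes. The deposited processed intensity values had near-equal medians (110.83 to 110.89) and the same probe ranks as the raw intensities, and how they were made is not given in the sources used here. The intensity was corrected with normexp on the detection p-values (limma 3.58.1, neqc, offset 16), quantile normalized and put on the log2 scale. Genes with a detection p under 0.01 on at least 3 arrays were kept, each by its brightest probe, with symbols updated through Entrez IDs in the platform annotation (30113 probes with 1 symbol, 8 with several, 17202 with none).

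limma fitted 12 group means to all 36 arrays in R 4.3.3, and p-values were adjusted by Benjamini-Hochberg over 12360 genes, with calls at 0.05. The fit was tested on simulated data with errors drawn independently for each array. That simulation does not cover arrays that deviate together, as same-numbered arrays did in part. With 3 arrays a group, the number of arrays limits the precision, and a gene's level was never set against another gene's. No 2 arrays held identical values. The members and lists were chosen with earlier results of these data known. Array values and statistics are given, per line or pair of lines, for the 4 largest vorinostat changes, the 3 largest hypoxia changes, the 3 largest line differences and the genes of the interaction. INSIG1, INSIG2, SREBF1, SREBF2, HMGCS1, SQLE, FASN and SCD were also followed across comparisons, with their values given in part. For SREBF2 only its detection and range of signals are given, and an interaction value is given for INSIG2 alone. The other pathway genes were named by size among those called, at most 2 a list, direction and line. Alternatives changed the normalization, background correction, offset (50), filter, probe choice, array weights, arrays in the fit and replicate block, used the processed values, and left out each array. The hypoxia comparison on vorinostat arrays was added after seeing the data. Promoter sequences are from RefSeq (GRCh38.p14).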

Additional observations from a re-analysis of the deposited data

Results flagged for a closer look

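The following results differed between lines, or between oxygen levels, in a test of the difference itself. Groups of 3 arrays are too small to test single arrays as outliers.

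The hypoxia response differed in 6 genes between DU145 and PC-3, in 15 between DU145 and 22Rv1 and in 8 between PC-3 and 22Rv1, of the 31 tested, against 2.85%, 5.76% and 5.19% of all genes. For DU145 minus PC-3 the log2 differences were 1.57 for TM7SF2, 1.07 for HMGCS1, 0.94 for MVD and 0.75 for INSIG1. For DU145 minus 22Rv1 they were 1.72 for HMGCS1, 1.59 for INSIG1, 1.44 for MSMO1 and 1.12 for SQLE. For PC-3 minus 22Rv1 they were 1.05 for MSMO1, 0.91 for SQLE, 0.89 for SC5D and 0.84 for INSIG1.

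The vorinostat effect differed in 9 genes between DU145 and PC-3, in 15 between DU145 and 22Rv1 and in 10 between PC-3 and 22Rv1, of the 31 tested, against 31%, 39.4% and 28.2% of all genes. For DU145 minus PC-3 the log2 differences were -1.99 for ELOVL6, 1.14 for TM7SF2, 0.52 for IDI1 and -0.37 for SQLE. For DU145 minus 22Rv1 they were -1.66 for ELOVL6, 0.90 for ACAT2, 0.76 for TM7SF2, -0.62 for SREBF1, -0.56 for FASN, -0.47 for INSIG1 and -0.32 for SCD. For PC-3 minus 22Rv1 they were 0.70 for ACAT2, 0.64 for SC5D, 0.54 for DHCR7 and -0.38 for INSIG1.

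The vorinostat effect differed between hypoxia and normoxia in 1 gene, INSIG2 in DU145, by -0.69 on the log2 scale (0.728% of all genes were called there).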

How the results depend on the processing

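Of 309 called results for single genes, 0 reversed under any alternative, 206 kept their call under every alternative, 76 lost it with median scaling and 73 lost it without at least 1 array. With median scaling the number of genes called was 12 for vorinostat in hypoxic DU145 (5 higher, 7 lower), 7 in normoxic 22Rv1 (1 and 6), 10 for hypoxia in DU145, 0 for the DU145 interaction, 1 for the hypoxia difference DU145 minus PC-3 and 4 for PC-3 minus 22Rv1. Its split of higher and lower was 1 and 9 for vorinostat in hypoxic PC-3, 1 and 12 in hypoxic 22Rv1, 5 and 1 for the vorinostat difference DU145 minus PC-3 and 9 and 2 for DU145 minus 22Rv1. It moved the all-gene median to -0.20 from -0.03 for untreated DU145 minus 22Rv1, to 0.12 from 0.02 for the vorinostat difference DU145 minus PC-3 and to -0.10 and -0.12 for the PC-3 and 22Rv1 interactions. Array weights gave 16 calls for hypoxia in 22Rv1 and 1 for the 22Rv1 interaction. With the arrays of the compared lines alone there were 17 calls for hypoxia in 22Rv1, 0 for the DU145 interaction and 3 for the hypoxia difference DU145 minus PC-3. On the vorinostat arrays there were 6 calls for hypoxia in PC-3 and 0 for DU145 minus PC-3.

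Leaving out each array in turn gave 7 to 10 calls for vorinostat in normoxic 22Rv1, 7 to 11 for hypoxia in PC-3, 0 to 1 for the DU145 interaction, 3 to 7 for the hypoxia difference DU145 minus PC-3 and 5 to 8 for PC-3 minus 22Rv1. The DU145 interaction was 0 without hypoxia solvent 1, hypoxia vorinostat 1, normoxia solvent 2 or normoxia vorinostat 2. In the other comparisons the counts kept within 1.5 times the reported ones. Of 19 uncalled results, 6 changed sign, and the cause was not tested. The log2 change of SREBF1 in hypoxia in DU145 was 0.028 with cyclic loess, 0.0012 without background correction and with the processed values, 0.00032 with an offset of 50, 0.072 with the mean of its probes, 0.094 with array weights and -0.16 to 0.11 without single arrays. That of SQLE with vorinostat in PC-3 was -0.0060 with median scaling and -0.011 to 0.10 without single arrays. Without single arrays HMGCS1 with vorinostat was -0.028 to 0.12 in DU145 and -0.17 to 0.030 in PC-3, and FASN in hypoxia was -0.084 to 0.20 in DU145 and -0.13 to 0.27 in PC-3.

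The replicate block gave 3 calls for the DU145 interaction. Same-numbered arrays of a line correlated at -0.03 to 0.47 in their deviations from group means, and not every pair passed 0.1, so the block was kept as an alternative. The medians by line and number were 0.02 to 0.30 within a number and -0.17 to -0.01 across numbers. The p-values of the main fit did not use the replicate number. A shared source is not shown by the labels, but 34 of 36 arrays correlated best with their own number, which is a hint of pairing from the data. The block by slide was not run because the headers used here name no slide. Signal over background limits SREBF2, FADS2 and MVK, which were above background on 16, 27 and 34 of 36 arrays.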

Other observations

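Of the 14 fatty acid oxidation genes measured, 9 were lower and 2 higher in DU145 than in 22Rv1 (median log2 difference -0.99), and 11 were lower and 1 higher in PC-3 than in 22Rv1, all on arrays in normoxia with solvent (median -0.79). Between DU145 and PC-3 6 were higher and 5 lower (median 0.21). In the same 3 comparisons 34.4%, 36.4% and 31% of all genes were called lower and 30.4%, 31.9% and 31.3% higher.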
